A study of Mus musculus with 10 samples.

Results

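Cultured endothelial cells of the adult mouse cortex were treated either with MS-275, an inhibitor of class I histone deacetylases, or with the Wnt ligand Wnt3a, and the messenger RNA of both kinds of culture was sequenced. The comparison of the treatments covers the 13189 genes of 21612 that had a normalised read count of at least 10 in at least 2 of the 4 treated libraries. The MS-275 group was 2 libraries of cultures given 10 µM MS-275, and the Wnt3a group was 2 libraries of cultures given Wnt3a, labelled as 200 nM, while the study's methods give the same figure in ng/ml. Adult control cultures (3 libraries) supplied the spread between cultures and a background level for each gene, and 3 further libraries of embryonic (E13.5) cells were not analysed here. All of these cells were wild type, from C57BL/6 J mice, grown on collagen and used at the second passage. By the methods the adult donors were males of 2 to 3 months, the cortices were pooled, and both treatments lasted equally long. The titles call the libraries biological replicates, but no label ties a library to an animal or a day of culture, so every p-value measures only the spread between these samples. The libraries are called MS-275 1 and 2, Wnt3a 1 and 2 and adult control 1 to 3.

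Class I histone deacetylases take acetyl groups off histone tails, and nucleosomes that have lost them are as a rule less open to transcription. MS-275 blocks these enzymes, so acetylation builds up and genes that are kept silent can be read. Wnt3a acts at the cell surface: it binds a Frizzled receptor together with Lrp5 or Lrp6, which spares beta-catenin from breakdown and lets it act with TCF and LEF factors on target genes. In the developing brain this pathway drives vessels to grow in and to form the blood-brain barrier, the set of tight junctions, transporters and low vesicle traffic that sets brain endothelium apart.

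The MS-275 libraries held 31810932 and 24106578 reads on genes, the Wnt3a libraries 21171509 and 22415081, and the adult control libraries 27074839 to 31763483. Reads fell on 16428 and 15823 genes in MS-275, against 14658 and 14088 in Wnt3a and 13948 to 14556 in adult control. Across all tested genes the log2 levels of the 2 MS-275 libraries correlated at Pearson's r = 0.931, those of the 2 Wnt3a libraries at 0.926, and MS-275 with Wnt3a libraries at 0.778 to 0.876. These r values are across genes, which are not independent replicates. Libraries did not pair up by treatment alone: Wnt3a 2 was closer to adult control 3 (r = 0.990) than to Wnt3a 1, and adult control 1 and 2 correlated at 0.992. The replicates of a group therefore stood apart from each other, by an SD over genes of 1.02 on the log2 scale in MS-275 and 1.21 in Wnt3a. Values are therefore also given with a library left out: with 2 replicates, leaving out either moves a log2 difference equally far in opposite directions, and for each named gene that moved by over 1.5-fold the difference nearer to 0 is printed with the library left out.

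MS-275 and Wnt3a cultures differed widely, and for nearly all called genes the untreated cultures were nearer to Wnt3a. In MS-275, 1462 genes were higher than in Wnt3a, which is 11.1% of those tested, and 1449 were lower, which is 11.0%. A gene was called where the limma model gave a Benjamini-Hochberg adjusted p under 0.05 and a log2 difference beyond 0.2 (4880 genes had an unadjusted p under 0.05). The median size of the log2 difference was 2.17 among the genes called higher and 2.00 among those called lower, against a median over all genes of 0.06. Here ± gives the standard error of a log2 difference, taken on log2(normalised count + 1), so that for genes with few reads it is smaller than the true change, and a fold is the ratio of the group means of normalised counts. Both MS-275 libraries lay on the same side of both Wnt3a libraries in all called genes, as they did in 63.6% of all genes tested. On the log2 scale the adult control mean was nearer to the Wnt3a mean than to the MS-275 mean for 1438 of the 1462 genes called higher and for 1434 of the 1449 called lower.

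The genes called higher and lower differed in their untreated level. An adult control mean under 10 normalised counts was found for 32.5% of the genes called higher in MS-275, against 0.276% of those called lower and 7.74% of all tested genes. Of the genes called higher, 443 reached the level of 10 in MS-275 only, so a difference was part of how they came to be tested, and 186 had no read in either Wnt3a library. Of the genes called lower, 53 reached it in Wnt3a only, and 2 had no read in MS-275. At the edge of the filter, 96 genes had a second highest value from 10 to under 11 and 84 from 9 to under 10. Counts of calls moved with the libraries used: leaving out MS-275 2 gave 364 higher and 410 lower, Wnt3a 2 537 and 359, Wnt3a 1 921 and 811, adult control 1 775 and 769, and adult control 2 912 and 926.

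Genes that mark endothelium were lower in MS-275 than in Wnt3a. Of 31 tested genes of endothelial identity, 24 fell (12 without MS-275 2, 14 without Wnt3a 2) and none rose, and the median log2 difference was -3.63, against 0.06 over all genes. The list summed to 78511 and 54884 normalised counts in MS-275, against 349530 and 400040 in Wnt3a and 403300 to 510700 in adult control, so the markers of the labelled cell type were read in every library. In these bulk libraries fewer endothelial cells and less RNA of these genes per cell cannot be told apart. Emcn, the sialomucin endomucin of the endothelial surface, had 235 and 292 in MS-275, against 17407 and 24437 in Wnt3a and 20142 to 23832 in adult control. It was 79.4-fold lower in MS-275 (log2 difference -6.29 ± 0.24, adjusted p = 0.00076), and the 2 MS-275 libraries lay close together, far below every other library. Its promoter is shown because this was among the largest falls. It lies at chr3:137340828-137341127 on the plus strand of GRCm38.p6 (RefSeq), 250 bases before to 50 after the start, and capitals mark a match on either strand. The first motif searched, the GC box, is written GGGCGG. The CCAAT box has the letters of its name. The TCF/LEF core was searched as CTTTGAT and as CTTTGTT.
Emcn: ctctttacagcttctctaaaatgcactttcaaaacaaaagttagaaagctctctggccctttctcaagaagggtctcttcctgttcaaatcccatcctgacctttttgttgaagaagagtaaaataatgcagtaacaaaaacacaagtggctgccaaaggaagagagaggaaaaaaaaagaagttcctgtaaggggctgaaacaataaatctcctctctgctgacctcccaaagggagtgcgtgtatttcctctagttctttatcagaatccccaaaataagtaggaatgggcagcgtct
The Emcn window held none of these motifs. Of 27025 promoters of this length, 35.9% held a GC box, 37.9% a CCAAT box and 9.28% a TCF/LEF core. A comparison of motifs between called genes and the rest is void, since 78.7% of the tested genes, under the 80% needed, had a promoter in the table.

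Receptors and adhesion molecules of the endothelial junction fell with it. Ptprb, the phosphatase that acts on the Tek receptor and VE-cadherin, had 517 and 223 in MS-275, against 12571 and 16078 in Wnt3a and 16222 to 21408 in adult control (log2 difference -5.38 ± 0.40, adjusted p = 0.0032). Pecam1, the junctional CD31 antigen, had 4762 and 2551 in MS-275, against 53472 and 57711 in Wnt3a and 58849 to 81545 in adult control (log2 difference -3.99 ± 0.36, adjusted p = 0.0041). Cdh5, VE-cadherin itself, had 10932 and 2808 in MS-275, against 55740.2 and 70487 in Wnt3a and 75414 to 90276 in adult control (log2 difference -3.50 ± 0.59, adjusted p = 0.012), and here MS-275 2 lay well below MS-275 1. In all 3 genes both MS-275 libraries were below both Wnt3a libraries, and both Wnt3a libraries were below every adult control library. Esam, another junctional adhesion molecule, was 12.8-fold lower, Ecscr, an endothelial surface protein, 13.6-fold, and Robo4, the endothelial Roundabout receptor, 47.6-fold. Icam2, a ligand for leukocyte integrins, had 123 and 13.1 in MS-275, against 3233 and 3898 in Wnt3a and 4318 to 6305 in adult control (52.5-fold lower). Chil5, of the chitinase-like family, had 23.9 and 21.9 in MS-275, against 1593 and 4624 in Wnt3a and 2874 to 4985 in adult control (log2 difference -6.83 ± 0.53, adjusted p = 0.0032).

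Gimap genes, which encode GTPases best known from lymphocytes, were lower as a group: 5 of 6 tested fell (2 without Wnt3a 2, 3 without MS-275 2) and none rose (median log2 difference -3.52). Gimap5 had 75.1 and 33.9 in MS-275, against 967 and 1175 in Wnt3a and 1277 to 1299.5 in adult control (log2 difference -4.37 ± 0.39, adjusted p = 0.0042), and Gimap1 and Gimap8 were 11.3-fold and 13.2-fold lower. Gimap6 stood at the high level of 1196 and 964 in MS-275, against 2009 and 2499.8 in Wnt3a, a much smaller fall than that of Gimap4 (50.3 and 4.37 in MS-275, against 445 and 308 in Wnt3a). In Ushbp1 and Dipk2b the Wnt3a libraries disagreed. Ushbp1 had 17.1 and 0 in MS-275, against 351 and 2832 in Wnt3a and 2327 to 2857 in adult control, and Dipk2b had 1.71 and 1.09 in MS-275, against 65.3 and 1510.2 in Wnt3a and 1031 to 1533 in adult control, so that Wnt3a 2 alone reached the control range. The call held without each library in turn for 10 of these 16 genes. The test was missed by 2 without MS-275 1 (adjusted p 0.058 to 0.065), 4 without MS-275 2 (adjusted p 0.072 to 0.11), 1 without Wnt3a 1 (adjusted p 0.083), 5 without Wnt3a 2 (adjusted p 0.053 to 0.088) and 1 without adult control 1 (adjusted p 0.053). The log2 difference without MS-275 2 was -4.78 for Ptprb (-5.38 with all), -2.52 for Cdh5 (-3.50 with all), -4.84 for Icam2 (-6.41 with all), -4.73 for Robo4 (-6.16 with all), -5.79 for Ushbp1 (-7.88 with all) and -2.85 for Gimap4 (-4.48 with all). It was -6.06 for Chil5 (-6.83 with all), -4.80 for Dipk2b (-7.06 with all) and -2.94 for Gimap8 (-3.59 with all) without Wnt3a 2.

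**Figure D1:**
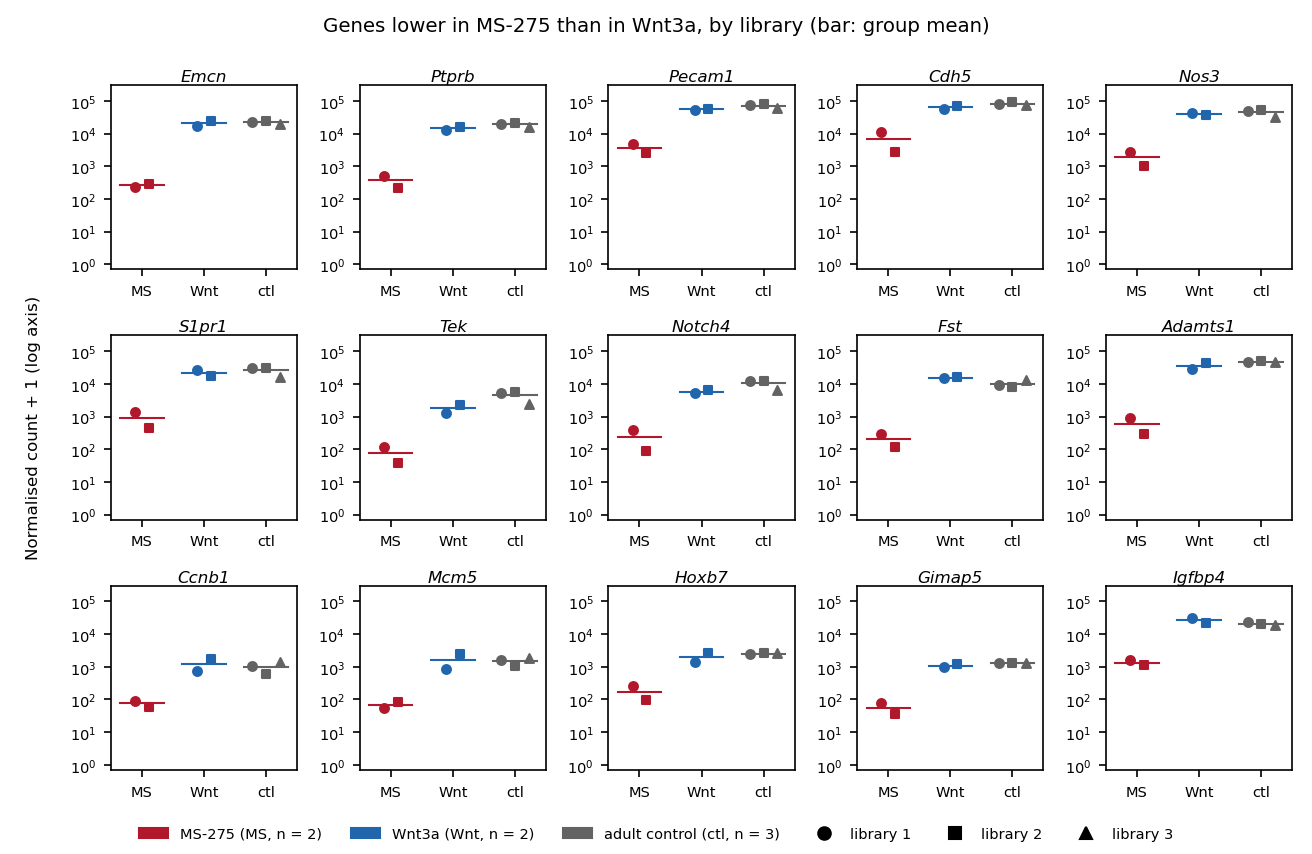
Normalised count + 1 (log axis) of genes called lower in MS-275, 1 point a library, with MS-275 left of Wnt3a and adult control and a bar at each group's mean. The MS-275 points of Emcn lie at 235 and 292, those of Wnt3a at 17407 and 24437.

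Barrier genes did not move as a block. Of 23 junction genes 3 rose (0 without MS-275 1, MS-275 2 or Wnt3a 2) and 5 fell (3 without MS-275 2 or Wnt3a 2) in MS-275, and the 5 included Cdh5, Esam and Pecam1 (median log2 difference -0.47). Cldn1, a claudin of tight junctions, had 97.2 and 199 in MS-275, against 8.34 and 0 in Wnt3a and 0 to 1.73 in adult control. Both MS-275 libraries were above both Wnt3a libraries (35.5-fold, log2 difference 5.52 ± 1.15, adjusted p = 0.02). Cldn1 passed the filter through MS-275 only, so that being high there was part of how it came to be tested. Among the other 22 junction genes 2 rose, where 11.1% of all tested genes rose and 11.0% fell. Cldn5, the main claudin of brain endothelium, had 2559.7 and 802 in MS-275, against 7832 and 7963 in Wnt3a and 8340.3 to 33861 in adult control, and was not called (log2 difference -2.46, 95% interval -4.35 to -0.58, adjusted p = 0.069). Its adult control libraries differed among themselves, with adult control 3 at the level of the Wnt3a libraries. Cldn5 was called lower under 5 of 22 alternatives, DESeq2 (adjusted p = 0.010) and the fit without adult control 3 (adjusted p = 0.025) among them. Cgn, cingulin of the tight-junction plaque, had 1127 and 966 in MS-275, against 73.6 and 8.36 in Wnt3a and 3.94 to 20.3 in adult control (log2 difference 5.30 ± 1.08, adjusted p = 0.019), and Tjp3, the scaffold ZO-3, had 113 and 54.6 in MS-275, against 11.1 and 1.19 in Wnt3a and 7.81 to 18.3 in adult control (named after its values were seen).

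Of 14 genes of caveolae and vesicle transport, 4 fell in MS-275 (1 without MS-275 2 or Wnt3a 2, 2 without adult control 1 or adult control 2), 1 rose and 9 were not called (median -0.91), and the 4 were all structural or regulatory parts of caveolae. Cav1, the main caveolin, had 6249 and 1581 in MS-275, against 24719 and 36629 in Wnt3a and 12649 to 34123 in adult control (7.83-fold lower), and Cav2, its partner, was 3.86-fold lower. Cavin3, a coat protein, had 885 and 654 in MS-275, against 2367 and 1902 in Wnt3a and 1829 to 2077 in adult control, and Ehd2, an ATPase at the caveolar neck, 8724 and 7347 in MS-275, against 14808 and 20344 in Wnt3a and 19210.2 to 22107 in adult control. The gene that rose was Tfrc, the transferrin receptor, with 13447 and 10379.7 in MS-275, against 6072 and 3457 in Wnt3a and 2932 to 5049 in adult control (2.50-fold). Of 19 barrier transporters 1, Slc38a3, passed the filter through MS-275 only, and among the other 18, 2 rose. Over all tested genes 11.1% rose and 11.0% fell. In all, 3 of the 19 transporters rose and none fell (median -0.02). They were Slc38a3, a glutamine carrier, with 54.6 and 101 in MS-275, against 2.78 and 0 in Wnt3a and 0 to 2.03 in adult control, Abcg2, an efflux pump, with 2140.1 and 2624 in MS-275, against 996 and 873 in Wnt3a and 522 to 994 in adult control, and the vitamin carrier Slc5a6 (2.35-fold higher). Slc2a1, the glucose carrier of the barrier, had 8411 and 6487 in MS-275, against 5364 and 1681 in Wnt3a and 1789 to 3476 in adult control and was not called (95% interval -0.07 to 2.67 on the log2 scale, adjusted p = 0.15).

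Of 12 tested barrier transcription factors 6 fell (1 without MS-275 2, 2 without MS-275 1, 3 without Wnt3a 2, adult control 1 or adult control 2) and 1, Tcf7, rose (median -1.48). Nr2f2, a factor of venous identity, had 650.0 and 804 in MS-275, against 3139.7 and 2822 in Wnt3a and 3468 to 4189.9 in adult control (log2 difference -2.04 ± 0.21, adjusted p = 0.0052). Foxf1, a forkhead factor, was 2.92-fold lower. Sox17 and Sox18 are SOX factors of endothelial fate. Sox17 had 51.2 and 101 in MS-275, against 500.1 and 2841 in Wnt3a and 2343 to 2782 in adult control, and Sox18 41.8 and 13.1 in MS-275, against 131 and 2031 in Wnt3a and 1977 to 2563 in adult control. In both genes Wnt3a 1 lay well below Wnt3a 2 and the controls, yet above both MS-275 libraries. Leaving out each library in turn kept 2 of these 15 calls (Cavin3 and Nr2f2). Lost were 8 without MS-275 1 (adjusted p 0.06 to 0.16), 13 without MS-275 2 (adjusted p 0.069 to 0.26), 4 without Wnt3a 1 (adjusted p 0.063 to 0.13), 12 without Wnt3a 2 (adjusted p 0.056 to 0.17), 7 without adult control 1 (adjusted p 0.055 to 0.092), 5 without adult control 2 (adjusted p 0.053 to 0.075) and 1 without adult control 3 (adjusted p 0.057). Leaving out MS-275 2 gave a log2 difference of -2.27 for Cav1 (-3.26 with all) and -1.35 for Cav2 (-2.18 with all). It was 3.81 for Cgn (5.30 with all), 3.91 for Cldn1 (5.52 with all), 4.31 for Slc38a3 (5.27 with all), -2.78 for Sox17 (-4.04 with all), -2.42 for Sox18 (-4.39 with all) and 2.71 for Tjp3 (3.95 with all) without Wnt3a 2.

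Genes of the Wnt pathway changed in both directions, and several of the target genes were higher in MS-275 than in the cultures given the ligand. Of 59 tested genes of the pathway 10 rose (16.9%) and 7 fell (11.9%), against 11.1% and 11.0% of all tested genes. Of 17 tested targets and feedback genes 5 rose (0 without MS-275 2, 2 without Wnt3a 1, Wnt3a 2 or adult control 1, 3 without MS-275 1 or adult control 2) and 2 fell. Of the 17, 4 passed the filter through MS-275 only, and among the other 13, 3 rose. Tcf7, which encodes the factor TCF1, had 312 and 271 in MS-275, against 19.4 and 35.8 in Wnt3a and 6.94 to 17.7 in adult control, so both MS-275 libraries were far above both Wnt3a libraries (10.6-fold, log2 difference 3.41 ± 0.59, adjusted p = 0.012). Axin2, the feedback scaffold often used as the readout of this pathway, had 11.9 and 83.1 in MS-275, against 5.56 and 7.16 in Wnt3a and 0 to 1.97 in adult control. It was not called (log2 difference 2.17, 95% interval -0.30 to 4.64, adjusted p = 0.18), and MS-275 1 was close to the Wnt3a libraries. Lef1, a TCF/LEF family member and target, was under the filter, with 5.12 and 15.3 in MS-275 and no read in Wnt3a. Rnf43, a ligase that clears Frizzled from the membrane, had 18.8 and 36.1 in MS-275, against 2.78 and 0 in Wnt3a and no read in adult control, and Fgf9, a growth factor, 25.6 and 21.9 in MS-275, against 0 and 2.39 in Wnt3a and 0 to 1.97 in adult control. Kremen1, a receptor for Dickkopf inhibitors, was 1.88-fold higher, as was Apcdd1, an inhibitor at the membrane (3.83-fold). Ccnd1, cyclin D1, went the other way, with 11499 and 1878 in MS-275, against 95058 and 50659 in Wnt3a and 37527 to 43094 in adult control (log2 difference -3.90 ± 0.79, adjusted p = 0.019), and both Wnt3a libraries lay above every control library. Prickle1, of the planar polarity branch, was 1.99-fold lower.

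Of 7 tested Wnt ligands 2 rose and 1 fell in MS-275, where 11.1% of all tested genes rose and 11.0% fell. Of the 7, 2 passed the filter through MS-275 only, and among the other 5 none rose. Wnt7b, a ligand for which brain endothelium has a dedicated coreceptor, had 22.2 and 19.7 in MS-275, against no read in Wnt3a and 1.97 to 12.2 in adult control, Wnt8b had 20.5 and 12 in MS-275, against 0 and 2.39 in Wnt3a and no read in adult control, and Wnt5a, a ligand best known for signalling without beta-catenin, 142 and 87.4 in MS-275, against 378 and 409 in Wnt3a and 389 to 465 in adult control. Wif1, a secreted Wnt inhibitor, had 52.9 and 76.5 in MS-275, against 2.78 and 0 in Wnt3a and no read in adult control (log2 difference 5.06 ± 0.77, adjusted p = 0.0093), the only one called of 3 tested. Wif1 passed the filter through MS-275 only, so that being high there was part of how it came to be tested. Of 32 receptors and transducers 2 rose and 4 fell. Adgra2, which encodes Gpr124, the Wnt7 coreceptor, had 669.6 and 585 in MS-275, against 3205 and 4952 in Wnt3a and 2552 to 4554 in adult control (log2 difference -2.67 ± 0.36, adjusted p = 0.0071), and Tspan12, the tetraspanin partner of Frizzled 4, was 3.32-fold lower. Wls, needed to secrete Wnt proteins, and Bcl9l, a beta-catenin coactivator, fell 3.97-fold and 3.25-fold. Lrp6 and Lgr4, the coreceptor and the R-spondin receptor, were 2.14-fold and 3.41-fold higher. Neither the coreceptor Lrp5 (log2 interval -1.46 to -0.12), nor the receptor Fzd4 (-2.53 to 0.35), nor Ctnnb1 itself (-0.68 to 1.25) was called. Lrp6, Apcdd1 and Prickle1 were named after their values were seen. Of the 17 calls named for these genes, 1 (Wif1) held without each library in turn. Calls lost were 7 without MS-275 1 (adjusted p 0.055 to 0.12), 15 without MS-275 2 (adjusted p 0.052 to 0.23), 13 without Wnt3a 1 (adjusted p 0.05 to 0.12), 12 without Wnt3a 2 (adjusted p 0.058 to 0.17), 8 without adult control 1 (adjusted p 0.052 to 0.099) and 6 without adult control 2 (adjusted p 0.052 to 0.086). Without MS-275 2, the log2 difference was -1.47 for Wls (-2.13 with all), -1.20 for Bcl9l (-1.82 with all) and -2.59 for Ccnd1 (-3.90 with all). It was 2.30 for Wnt8b (3.18 with all) and 2.86 for Fgf9 (3.74 with all) without Wnt3a 1. It was 2.84 for Rnf43 (3.80 with all) and 4.10 for Wif1 (5.06 with all) without Wnt3a 2.

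Genes reported in many cell types to respond to deacetylase inhibitors were called higher in MS-275 or not at all. Of 23 such genes 7 rose (0 without MS-275 2, 2 without Wnt3a 2 or adult control 1, 4 without MS-275 1 or adult control 2) and none fell. Of the 23, 3 passed the filter through MS-275 only, and among the other 20, 5 rose. Mt2, a metallothionein, had 102 and 78.7 in MS-275, against 2.78 and 0 in Wnt3a and 0 to 2.03 in adult control. Gadd45b, a stress response gene, had 813 and 1000.0 in MS-275, against 219 and 58.5 in Wnt3a and 57.3 to 65.1 in adult control (6.52-fold higher). Hspa2, a chaperone of the Hsp70 family, was 6.39-fold higher, and Ndrg4, expressed in neurons and heart, 4.90-fold. In each of these the MS-275 libraries were above the Wnt3a and the adult control libraries. Stmn2, a tubulin-binding protein of neurons, had 10.2 and 173 in MS-275, against no read in Wnt3a and 0 to 2.03 in adult control, with MS-275 2 far above MS-275 1.

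Most genes of the deacetylases themselves were not called. Of 28 deacetylase and corepressor genes 1 rose and 5 fell (0 without Wnt3a 2, 1 without MS-275 2 or Wnt3a 1, 2 without adult control 1 or adult control 2), where 11.1% of all tested genes rose and 11.0% fell (median -0.14). Hdac1, a class I enzyme that MS-275 blocks, had 2424 and 2771 in MS-275, against 1332 and 1564 in Wnt3a and 1460.0 to 1629 in adult control (1.79-fold higher, log2 difference 0.84 ± 0.20, adjusted p = 0.028). Hdac3, of the same class, had 1112 and 1063 in MS-275, against 746 and 702 in Wnt3a and 781 to 936 in adult control and was not called (95% interval 0.07 to 1.10), and neither was Hdac8 (-1.57 to 0.03). The class IIa genes Hdac7, known for its part in endothelium, and Hdac9 were 5.89-fold and 4.49-fold lower. Mta1 and Kdm1a, partners of the deacetylases in corepressor complexes, were 2.75-fold and 1.73-fold lower. On the opposing side, 3 of 13 acetyltransferase and bromodomain genes fell and none rose. Kat2b, an acetyltransferase of the SAGA and ATAC complexes, had 138 and 51.4 in MS-275, against 921 and 686 in Wnt3a and 731 to 891 in adult control (log2 difference -3.22 ± 0.48, adjusted p = 0.0087). Its paralogue Kat2a and the coactivator Crebbp were 2.37-fold and 2.03-fold lower.

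Of 23 polycomb genes, whose products silence genes through histone H3 lysine methylation and H2A ubiquitination, 4 fell (1 without Wnt3a 2, 2 without MS-275 2 or Wnt3a 1) and none rose (median 0.04). Cbx6, a chromodomain subunit, had 2403 and 2413 in MS-275, against 5926 and 8426 in Wnt3a and 8304 to 8656 in adult control (log2 difference -1.55 ± 0.22, adjusted p = 0.0077). Pcgf2 and Bmi1, RING finger subunits, were 2.99-fold and 3.05-fold lower, and Phf19, a recruiting subunit, 5.70-fold. Ezh2, the methyltransferase, had 712 and 995 in MS-275, against 789 and 1406 in Wnt3a and 479.8 to 1083 in adult control, and its groups overlapped (95% interval -1.43 to 0.78, adjusted p = 0.65). Of 21 histone genes 2 rose and 1 fell, where 11.1% of all tested genes rose and 11.0% fell. H2afv, a variant histone gene, had 1037 and 1509 in MS-275, against 251 and 479 in Wnt3a and 375 to 427 in adult control, and Hist1h2be 121 and 302 in MS-275, against 47.2 and 14.3 in Wnt3a and 12.1 to 24.6 in adult control. Histone genes of the clusters are near-identical copies whose messages mostly lack a poly(A) tail, so their values in these libraries are uncertain. The call held without each library in turn for 2 of these 19 genes (Cbx6 and Kat2b). The test was missed by 5 without MS-275 1 (adjusted p 0.06 to 0.13), 14 without MS-275 2 (adjusted p 0.06 to 0.22), 11 without Wnt3a 1 (adjusted p 0.052 to 0.12), 14 without Wnt3a 2 (adjusted p 0.05 to 0.17), 8 without adult control 1 (adjusted p 0.054 to 0.1) and 7 without adult control 2 (adjusted p 0.05 to 0.086). The log2 difference without MS-275 2 was -1.85 for Hdac7 (-2.93 with all), -2.52 for Kat2b (-3.22 with all), 1.70 for Hspa2 (2.51 with all) and 3.49 for Stmn2 (5.47 with all). It was -1.87 for Phf19 (-2.48 with all), 1.99 for Hist1h2be (2.82 with all), 4.59 for Mt2 (5.55 with all), 2.03 for Gadd45b (2.98 with all) and 1.59 for Ndrg4 (2.53 with all) without Wnt3a 2.

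Cell cycle genes were lower in MS-275. Of 28 tested mitosis genes 23 fell (2 without MS-275 2, 3 without Wnt3a 2, 10 without MS-275 1, 13 without adult control 1) and none rose, with a median log2 difference of -3.13, and all 28 had a negative difference. Of 32 genes of DNA replication 13 fell (1 without MS-275 2, 2 without Wnt3a 2, 6 without MS-275 1) and none rose (median -1.08). Mcm5, a subunit of the replicative helicase, had 52.9 and 83.1 in MS-275, against 868 and 2371 in Wnt3a and 1049 to 1832 in adult control (log2 difference -4.42 ± 0.54, adjusted p = 0.006). Cdc6, which loads that helicase, and Cdc45, which activates it, were 9.31-fold and 5.39-fold lower, as were Pole, of the leading-strand polymerase (7.60-fold), and Rfc5, of the clamp loader (2.10-fold). Aurkb, the kinase of the chromosomal passenger complex, had 29.9 and 40.4 in MS-275, against 309.8 and 599 in Wnt3a and 378 to 565 in adult control (log2 difference -3.59 ± 0.44, adjusted p = 0.006). Foxm1, the factor that drives the G2 and M phase genes, had 535 and 345 in MS-275, against 1881 and 1958 in Wnt3a and 1099 to 1696 in adult control (log2 difference -2.16 ± 0.31, adjusted p = 0.0083). Cdc20, an activator of the anaphase-promoting complex, was 19.4-fold lower. In Mcm5, Aurkb and Foxm1 both MS-275 libraries lay below every Wnt3a and adult control library.

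The B-type cyclins, which bind Cdk1 at the entry to mitosis, showed the same order. Ccnb1 had 90.4 and 59 in MS-275, against 754 and 1668 in Wnt3a and 599.8 to 1384 in adult control (16.2-fold lower, log2 difference -3.92 ± 0.54, adjusted p = 0.0075), and Ccnb2 35.8 and 15.3 in MS-275, against 321 and 917 in Wnt3a and 266 to 679 in adult control (24.2-fold lower). Their promoters are shown because CCAAT boxes are a known feature of G2 and M phase genes, and capitals have the meaning given above. Both lie on the minus strand of GRCm38.p6, Ccnb1 at chr13:100786437-100786736 and Ccnb2 at chr9:70421505-70421804.
Ccnb1: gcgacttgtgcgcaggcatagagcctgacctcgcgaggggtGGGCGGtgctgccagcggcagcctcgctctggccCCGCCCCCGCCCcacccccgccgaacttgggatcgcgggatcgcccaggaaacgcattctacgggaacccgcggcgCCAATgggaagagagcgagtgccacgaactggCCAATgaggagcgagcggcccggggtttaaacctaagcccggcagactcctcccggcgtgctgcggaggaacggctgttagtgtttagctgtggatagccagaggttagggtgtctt
Ccnb2: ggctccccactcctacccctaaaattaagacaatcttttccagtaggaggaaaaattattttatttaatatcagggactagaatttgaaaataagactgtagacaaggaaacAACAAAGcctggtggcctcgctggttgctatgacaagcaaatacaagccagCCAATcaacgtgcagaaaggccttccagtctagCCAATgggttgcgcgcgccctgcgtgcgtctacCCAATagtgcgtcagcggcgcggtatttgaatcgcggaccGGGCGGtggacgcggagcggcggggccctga
The Ccnb1 window held 3 GC boxes and 2 CCAAT boxes, and that of Ccnb2 held 1 GC box, 3 CCAAT boxes and 1 TCF/LEF core, counting overlapping matches separately. A match describes the letters and says nothing of a bound factor.

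Cdkn1c, the CDK inhibitor p57, was the only one of 8 CDK inhibitors to rise, with 779 and 738 in MS-275, against 58.3 and 43 in Wnt3a and 21.7 to 207 in adult control. Cdkn1a, the inhibitor p21, had 8051 and 8563 in MS-275, against 14788 and 9088 in Wnt3a and 9654 to 10686 in adult control and was not called (95% interval -1.12 to 0.15). Of 21 genes of the BCL2 family and p53 targets 2 rose and 6 fell (1 without MS-275 2 or Wnt3a 2, 3 without adult control 1; median -0.29). Bak1 and Bax, which open the outer mitochondrial membrane in apoptosis, were 3.21-fold and 2.12-fold lower. The p53 targets Eda2r and Zmat3 were 6.51-fold and 3.48-fold lower, whereas Sesn1, a stress-induced inhibitor of mTORC1 signalling, had 595 and 1232 in MS-275, against 233 and 221 in Wnt3a and 209 to 296 in adult control (4.02-fold higher). Leaving out each library in turn kept 4 of these 16 calls (Aurkb, Bak1, Foxm1 and Mcm5). Lost were 4 without MS-275 1 (adjusted p 0.056 to 0.14), 12 without MS-275 2 (adjusted p 0.051 to 0.18), 3 without Wnt3a 1 (adjusted p 0.067 to 0.095), 10 without Wnt3a 2 (adjusted p 0.05 to 0.14) and 3 without adult control 1 (adjusted p 0.053 to 0.06). Leaving out MS-275 2 gave a log2 difference of -3.51 for Cdc20 (-4.32 with all). It was -3.69 for Mcm5 (-4.42 with all), -2.08 for Pole (-2.76 with all) and -3.72 for Ccnb2 (-4.47 with all) without Wnt3a 2.

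Signalling genes of growing and arterial vessels were called in both directions. Of 30 angiogenesis genes 9 fell (4 without MS-275 2) and 1 rose (median -1.26). Tek, the angiopoietin receptor Tie2, had 116 and 36.1 in MS-275, against 1282 and 2259.9 in Wnt3a and 2383 to 5643 in adult control (log2 difference -4.69 ± 0.66, adjusted p = 0.0078), and Angpt2, its ligand, 56.3 and 40.4 in MS-275, against 678 and 363 in Wnt3a and 285 to 729.9 in adult control (log2 difference -3.35 ± 0.56, adjusted p = 0.011). Nrp2, a coreceptor for VEGF and semaphorins, was 6.60-fold lower. Vegfa had 506 and 391 in MS-275, against 971 and 352 in Wnt3a and 331 to 587 in adult control, and its groups overlapped (95% interval -1.67 to 0.88). The gene that rose, named after its values were seen, was Thbs1, thrombospondin 1, an angiogenesis inhibitor, with 5384 and 5437 in MS-275, against 1471 and 667 in Wnt3a and 173 to 406 in adult control. Its Wnt3a libraries too were above all control libraries.

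In the Notch pathway 6 of 19 genes fell (3 without MS-275 2 or Wnt3a 2) and 2 rose. Of the 19, 2 passed the filter through MS-275 only, and among the other 17 none rose. Over all tested genes 11.1% rose and 11.0% fell. Notch4, the endothelial receptor, had 374 and 88.5 in MS-275, against 5261 and 6294 in Wnt3a and 6622 to 12249.7 in adult control (log2 difference -4.97 ± 0.65, adjusted p = 0.0068). Dll4, its arterial ligand, was 20.4-fold and Notch1 2.90-fold lower. Hey2, a target repressor, had 75.1 and 153 in MS-275, against 2.78 and 2.39 in Wnt3a and 0 to 1.97 in adult control (44.1-fold higher). Dtx1, a ubiquitin ligase of the pathway, had 83.6 and 153 in MS-275, against no read in Wnt3a or adult control, at least 61.1-fold higher when Wnt3a is set at 3 reads over the group. Of 26 genes of BMP and TGF-beta signalling 7 fell (1 without MS-275 2 or Wnt3a 2, 4 without adult control 1) and 2 rose. Fst, follistatin, which traps activins, had 289 and 113 in MS-275, against 14634 and 16399 in Wnt3a and 7967 to 12905 in adult control (log2 difference -6.42 ± 0.45, adjusted p = 0.0032), with both Wnt3a libraries above the control range. Smad1, Tgfbr2 and Inhbb, a BMP transducer, the type II receptor and an activin subunit, were 10.5-fold, 5.71-fold and 12.4-fold lower.

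Of 19 vasoactive genes 7 fell (2 without MS-275 2, 3 without Wnt3a 2 or adult control 1, 4 without MS-275 1 or adult control 2) and 2 rose. Nos3, the endothelial nitric oxide synthase, had 2801 and 984 in MS-275, against 43429 and 35988 in Wnt3a and 32846 to 51617 in adult control (log2 difference -4.57 ± 0.50, adjusted p = 0.0052). S1pr1, the sphingosine 1-phosphate receptor, had 1379 and 443 in MS-275, against 26612 and 17238 in Wnt3a and 16027 to 30998 in adult control (log2 difference -4.77 ± 0.59, adjusted p = 0.006). Ednrb, the endothelin B receptor, had 206 and 139.9 in MS-275, against 2146 and 17150.1 in Wnt3a and 19145 to 20548 in adult control, with Wnt3a 1 between the MS-275 libraries and the rest. Ptgs1, the cyclooxygenase COX-1, was 3.61-fold higher, and Ptges, the prostaglandin E synthase, had 25.6 and 24 in MS-275, against no read in Wnt3a or adult control (at least 12.8-fold). Of the 19 vasoactive genes 1, Ptges, passed the filter through MS-275 only, and among the other 18, 1 rose. Clotting genes split, with 4 higher and 4 lower of 19. Of the 19, 3 passed the filter through MS-275 only, F2rl1 among them, and among the other 16, 3 rose. Plat, the tissue plasminogen activator, had 10516 and 15303 in MS-275, against 850.2 and 291 in Wnt3a and 243 to 333 in adult control (log2 difference 4.67 ± 0.50, adjusted p = 0.0052), and F2rl1, the receptor PAR2, 13.6 and 19.7 in MS-275, against no read in Wnt3a or adult control. F2rl3, the thrombin receptor PAR4, had 11.9 and 13.1 in MS-275, against 771 and 749 in Wnt3a and 841 to 1877 in adult control (60.6-fold lower), and Pros1, protein S, was 4.68-fold lower. F8, clotting factor VIII, had 215 and 244 in MS-275, against 4195 and 9308 in Wnt3a and 3107 to 11866 in adult control (29.4-fold lower). Igfbp4, which binds insulin-like growth factors, had 1586 and 1110.4 in MS-275, against 30066 and 21870.4 in Wnt3a and 19526 to 22822 in adult control (log2 difference -4.27 ± 0.27, adjusted p = 0.003). Of the 24 calls named for these genes, 14 held without each library in turn. Calls lost were 2 without MS-275 1 (adjusted p 0.05 to 0.084), 10 without MS-275 2 (adjusted p 0.051 to 0.12), 1 without Wnt3a 1 (adjusted p 0.07) and 5 without Wnt3a 2 (adjusted p 0.055 to 0.086). Without MS-275 2, the log2 difference was -3.86 for Tek (-4.69 with all), -3.94 for Notch4 (-4.97 with all), -5.74 for Fst (-6.42 with all), -2.82 for Smad1 (-3.46 with all), -1.96 for Tgfbr2 (-2.59 with all), -2.84 for Inhbb (-3.71 with all), -3.82 for Nos3 (-4.57 with all) and -3.96 for S1pr1 (-4.77 with all). It was -3.65 for Ednrb (-5.15 with all) and 3.90 for Plat (4.67 with all) without Wnt3a 2.

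**Figure D2:**
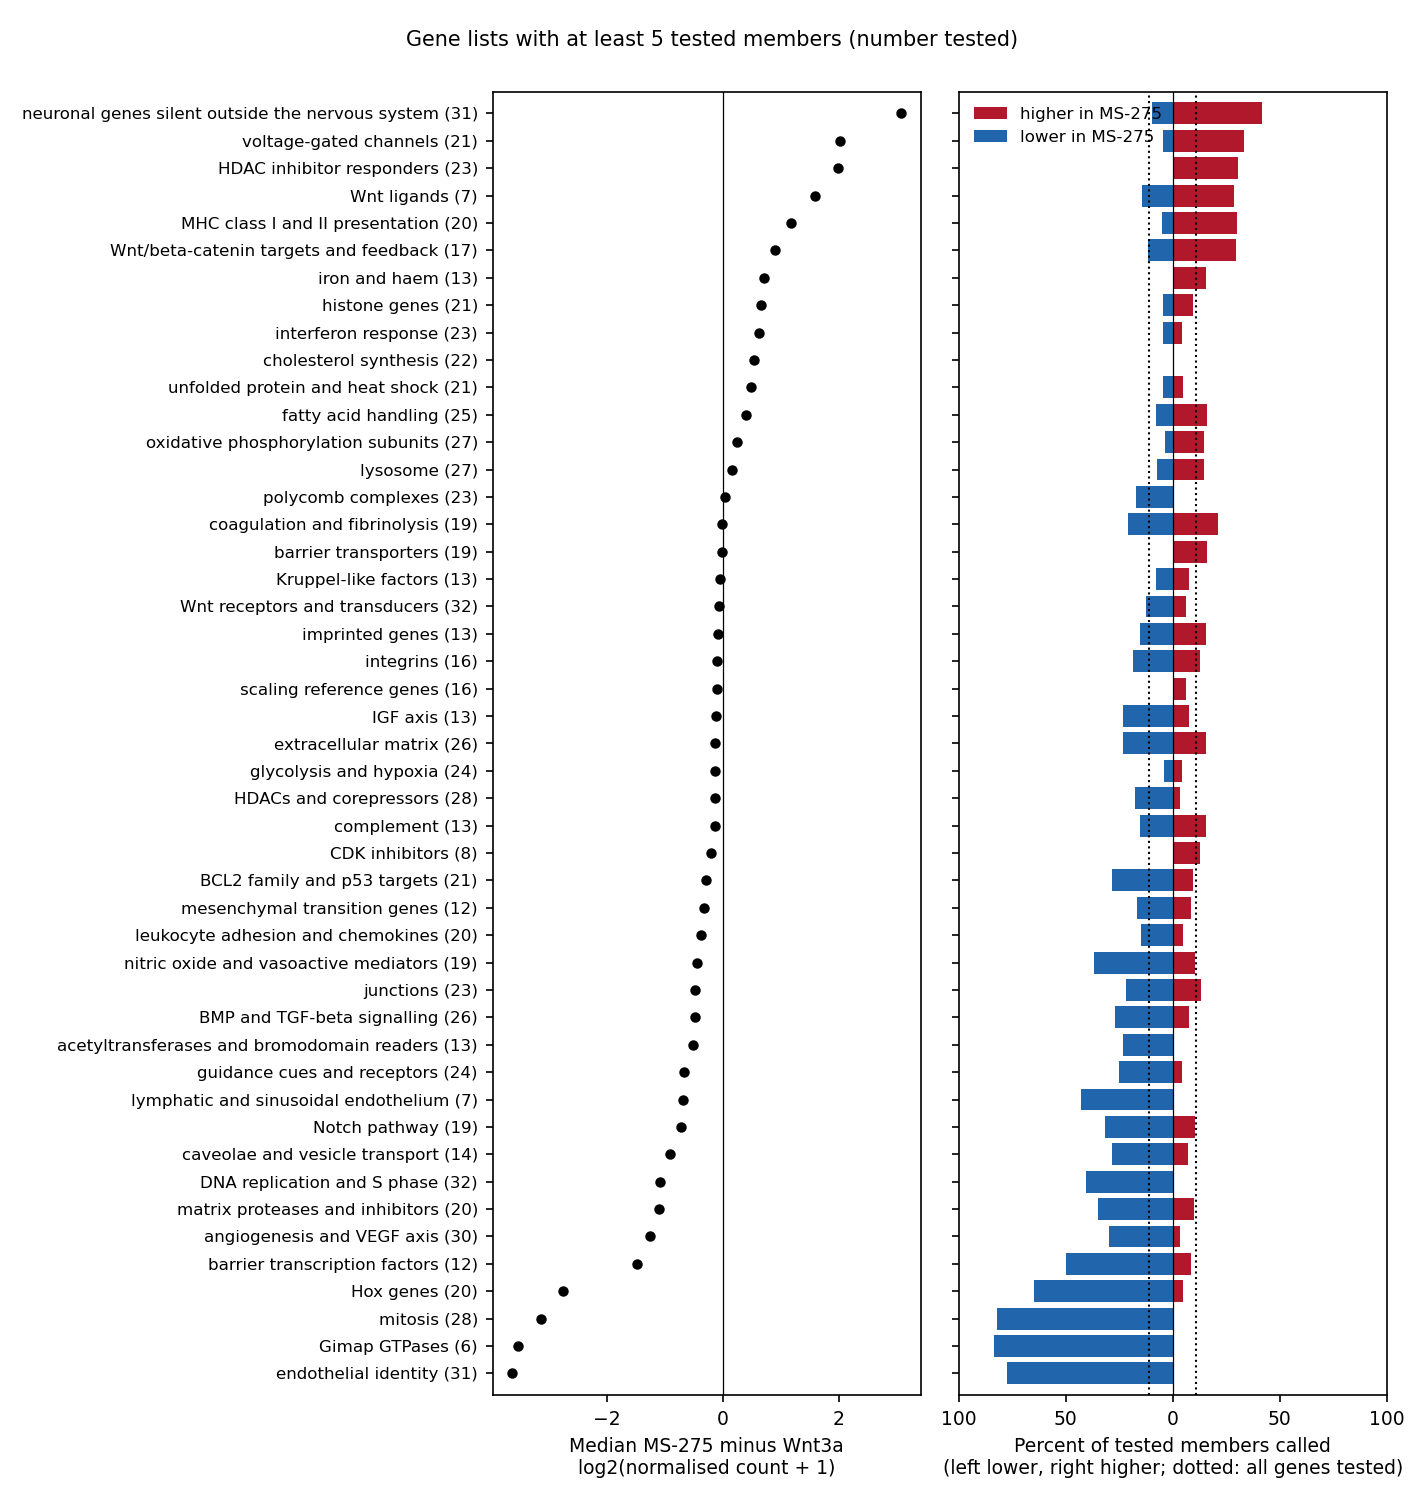
Share of the tested members of each gene list called higher (to the right) and lower (to the left) in MS-275 against Wnt3a, in percent, with dotted lines at the shares over all genes, 11.1% and 11.0%. Gimap genes (5 of 6 lower), mitosis (23 of 28 lower) and endothelial identity (24 of 31 lower) reach furthest to the left.

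Hox genes, which encode the homeodomain factors of position along the body axis, were lower in MS-275: 13 of 20 tested fell (4 without Wnt3a 2, 5 without MS-275 2, 8 without adult control 1) and 1 rose (median -2.75). Hoxb8 had 211 and 90.7 in MS-275, against 1748 and 6328 in Wnt3a and 4955 to 6685 in adult control (log2 difference -4.58 ± 0.64, adjusted p = 0.0077), and Hoxb5 15.4 and 10.9 in MS-275, against 221 and 802 in Wnt3a and 416 to 716 in adult control (log2 difference -4.92 ± 0.65, adjusted p = 0.007). In both, Wnt3a 1 was below Wnt3a 2 and every MS-275 value below both. Hoxb7, Hoxb3 and Hoxd10 were 11.6-fold, 13.3-fold and 5.15-fold lower. The exception, named after its values were seen, was Hoxb9, with 131 and 338 in MS-275, against 13.9 and 43 in Wnt3a and 20.8 to 35.5 in adult control. The call held without each library in turn for 2 of these 6 genes (Hoxb7 and Hoxd10). The test was missed by 4 without MS-275 2 (adjusted p 0.059 to 0.16), 1 without Wnt3a 1 (adjusted p 0.1), 1 without Wnt3a 2 (adjusted p 0.052), 1 without adult control 1 (adjusted p 0.058) and 1 without adult control 2 (adjusted p 0.056). The log2 difference without MS-275 2 was -2.93 for Hoxb7 (-3.63 with all) and -2.97 for Hoxb3 (-3.75 with all). It was 2.27 for Hoxb9 (3.05 with all) without Wnt3a 1. It was -3.99 for Hoxb5 (-4.92 with all) and -3.65 for Hoxb8 (-4.58 with all) without Wnt3a 2.

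Genes that were at or near 0 in Wnt3a and in adult control were read in MS-275. Of 31 tested genes that are mostly silent outside the nervous system 13 rose (4 without MS-275 2, 8 without Wnt3a 2) and 3 fell. Of the 31, 8 passed the filter through MS-275 only, so that being high there was part of how they came to be tested, and among the other 23, 6 rose. Slc17a7, the vesicular glutamate transporter VGLUT1, had 239 and 621 in MS-275, against no read in Wnt3a and 2.96 to 10.2 in adult control. With Wnt3a set at 3 reads over the group it was at least 222-fold higher (log2 difference 8.59 ± 0.76, adjusted p = 0.0041), and no fitted difference of a gene without reads is itself a bound. Its promoter is shown because its fitted log2 difference was the largest rise among called genes that averaged at least 100 in the treated libraries. It lies at chr7:45163671-45163970 on the plus strand of GRCm38.p6.
Slc17a7: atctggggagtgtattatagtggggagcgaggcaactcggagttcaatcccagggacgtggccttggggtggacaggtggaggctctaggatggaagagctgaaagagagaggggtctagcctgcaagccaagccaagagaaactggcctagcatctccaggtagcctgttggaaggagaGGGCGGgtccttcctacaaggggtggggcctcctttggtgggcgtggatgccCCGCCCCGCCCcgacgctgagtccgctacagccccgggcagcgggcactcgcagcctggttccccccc
It held 3 GC boxes and no CCAAT box or TCF/LEF core. Vgf, a neuropeptide precursor, had 1826 and 5635 in MS-275, against 8.34 and 14.3 in Wnt3a and 4.07 to 19.7 in adult control (329-fold higher, log2 difference 8.07 ± 0.83, adjusted p = 0.0052). Mapt, the microtubule protein tau, had 1126 and 1233 in MS-275, against 32 and 9.55 in Wnt3a and 12.2 to 18.7 in adult control (log2 difference 5.98 ± 0.62, adjusted p = 0.0052). Unc13a, which primes synaptic vesicles, was read in every library, with 2215 and 2576 in MS-275, against 531 and 363 in Wnt3a and 412 to 497 in adult control. Gdap1, a mitochondrial protein of neurons, had 141 and 205 in MS-275, against 2.78 and 0 in Wnt3a and no read in adult control, and Snap25, of the synaptic fusion machinery, 112 and 198 in MS-275, against 2.78 and 0 in Wnt3a and 0 to 1.97 in adult control. The 3 that fell were Cplx2, complexin 2 (10.5-fold), Map1b, a microtubule protein (2.31-fold), and Dpysl3 of the collapsin response family (2.98-fold), all named after their values were seen and all well read in adult control.

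Of 21 voltage-gated channel genes 7 rose (3 without MS-275 2 or Wnt3a 1) and 1 fell. Of the 21, 9 passed the filter through MS-275 only, and among the other 12, 1 rose. Cacna1g, a T-type calcium channel, had 232 and 219.7 in MS-275, against 1.39 and 0 in Wnt3a and no read in adult control (log2 difference 7.20 ± 0.63, adjusted p = 0.0041), and Scn1a, a sodium channel, 46.1 and 29.5 in MS-275, against no read in Wnt3a and 0 to 1.97 in adult control. Kcnab2, a potassium channel subunit, had 371 and 662 in MS-275, against 22.2 and 29.8 in Wnt3a and 21.7 to 36.5 in adult control (19.8-fold higher). Kcnq1, another potassium channel, was 4.84-fold lower. The largest rises among genes of a mean of at least 100 were not confined to neuronal genes. Des, Onecut2, Synpo2, Cadm4, Hba-a1 and Hba-a2 passed the filter through MS-275 only. Being high there was part of how they came to be tested, and the ranking used the same difference. Des, the muscle intermediate filament desmin, had 299 and 436 in MS-275, against no read in Wnt3a or adult control (log2 difference 8.50 ± 0.55, adjusted p = 0.0031). Onecut2, a homeodomain factor of liver and neurons, had 438 and 818 in MS-275, against 0 and 2.39 in Wnt3a and 0 to 1.97 in adult control, Synpo2, an actin-binding protein of muscle, 270.4 and 293 in MS-275, against no read in Wnt3a and 0 to 1.73 in adult control, and Cadm4, a cell adhesion molecule, 1683 and 4429 in MS-275, against 8.34 and 9.55 in Wnt3a and 0 to 6.94 in adult control. Hba-a1 and Hba-a2, the alpha globin genes, had 252 and 244 and 238 and 243 in MS-275 and no read in any Wnt3a or adult control library, but their sequences are near-identical and the split between them is uncertain.

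Markers of other cell types were measured in the same libraries. Every marker that rose, except the 1 of microglia and macrophages, passed the filter through MS-275 only. Being high there was part of how these markers came to be tested. Among the markers of neurons, 6 of 17 were tested, 2 rose (Slc17a7 and Snap25) and 1, Gad2, fell (4.37-fold). Their summed level was 3595 to 6116 in MS-275, against 3651 to 13095 in Wnt3a and 2865 to 5378 in adult control. In MS-275, 4 of the 17 had no read (Neurod1, Neurod6, Dcx and Sox2, also at 0 in Wnt3a and adult control), against 7 in Wnt3a. Under the filter, Map2 had 8.53 and 21.9 in MS-275, Gad1 5.97 and 8.74, Neurog2 17.1 and 6.56 and Syt1 18.8 and 8.74, against 0 to 2.78 in Wnt3a and 0 to 1.73 in adult control (named after their values were seen). Rbfox3, Eomes and Pax6, also under it and named after their values were seen, had 0 to 3.28 in MS-275 and 0 to 3.58 in Wnt3a. Of 12 astrocyte markers 6 were tested, Ndrg2 rose (15.4 and 416 in MS-275, against 0 and 2.39 in Wnt3a) and Gja1 fell (3.59-fold). The sum was 2578 to 2602 in MS-275, against 4394 to 11724 in Wnt3a and 3902 to 5199.8 in adult control, and 1, Aqp4, had no read in MS-275, against 5 in Wnt3a. Of 13 markers of pericytes and smooth muscle 7 were tested, Des rose and Mcam fell (5.08-fold). The sum was 1577 to 2504 in MS-275, against 3809 to 8677 in Wnt3a and 8671 to 23572 in adult control, and 3 had no read in MS-275, against 4 in Wnt3a, with Kcnj8 at 0 in all.

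Of 14 fibroblast markers 4 were tested and 2 rose, Col1a1 (66.5 and 80.9 in MS-275, against 4.17 and 0 in Wnt3a and 9.86 to 20.8 in adult control) and Col6a1. The sum was 959.6 to 1342 in MS-275, against 246 to 574 in Wnt3a and 158 to 282 in adult control, and 3 had no read in MS-275, against 4 in Wnt3a, with Lum at 0 in all. Under the filter, Mfap5 had 17.1 and 3.28 in MS-275 and Fbln1 0.85 and 24.0, against no read in Wnt3a or adult control. Col1a2 had 13.6 and 8.74 in MS-275, against 8.34 and 0 in Wnt3a. Col3a1 and Dpt had no read in MS-275, against 0 and 2.39 and 4.17 and 0 in Wnt3a. Dcn, Fap, Thy1 and Islr had at most 3.41 in any MS-275 or Wnt3a library (all named after their values were seen). Of 12 erythroid markers both alpha globins were tested, and the sum was 499 to 513 in MS-275, against 10.7 to 12.5 in Wnt3a and 15.6 to 27.4 in adult control, with Hbb-bs and Hbb-bt at 0 in all. Of 10 oligodendrocyte markers 4 were tested and Mbp rose (13.6 and 10.9 in MS-275, against 1.39 and 0 in Wnt3a). The sum was 445 to 508 in MS-275, against 343 to 874 in Wnt3a and 331 to 381 in adult control, with Olig1 and Olig2 at 0. Of 16 microglia and macrophage markers 5 were tested and 1 rose. The sum was 8659 to 12522 in MS-275, against 8687 to 15205 in Wnt3a and 9511 to 16725 in adult control, and 4 had no read in MS-275, against 8 in Wnt3a, with P2ry12, C1qa and Tyrobp at 0 in all. Of 11 markers of epithelium and choroid plexus 2 were tested and none was called, and the sum was 169 to 266 in MS-275, against 93.1 and 6198 in Wnt3a 1 and 2 and 132 to 3172 in adult control. The part of these cell types in the results was not tested. Leaving out each library in turn kept 14 of these 25 calls. Lost were 4 without MS-275 1 (adjusted p 0.077 to 0.2), 10 without MS-275 2 (adjusted p 0.059 to 0.23), 7 without Wnt3a 1 (adjusted p 0.053 to 0.17), 7 without Wnt3a 2 (adjusted p 0.054 to 0.19), 7 without adult control 1 (adjusted p 0.05 to 0.081), 5 without adult control 2 (adjusted p 0.06 to 0.08) and 1 without adult control 3 (adjusted p 0.055). Leaving out MS-275 2 gave a log2 difference of 7.91 for Slc17a7 (8.59 with all), 7.26 for Vgf (8.07 with all), 7.41 for Cadm4 (8.10 with all), -2.66 for Cplx2 (-3.76 with all), 3.15 for Ndrg2 (5.49 with all) and -1.54 for Gad2 (-2.24 with all). It was 7.47 for Onecut2 (8.35 with all) and -0.97 for Gja1 (-1.68 with all) without Wnt3a 1. It was 5.16 for Mapt (5.98 with all), 5.50 for Gdap1 (6.46 with all), 6.57 for Cacna1g (7.20 with all), 5.31 for Snap25 (6.27 with all), 3.85 for Col1a1 (5.03 with all), -1.67 for Mcam (-2.28 with all) and 2.47 for Mbp (3.10 with all) without Wnt3a 2.

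**Figure D3:**
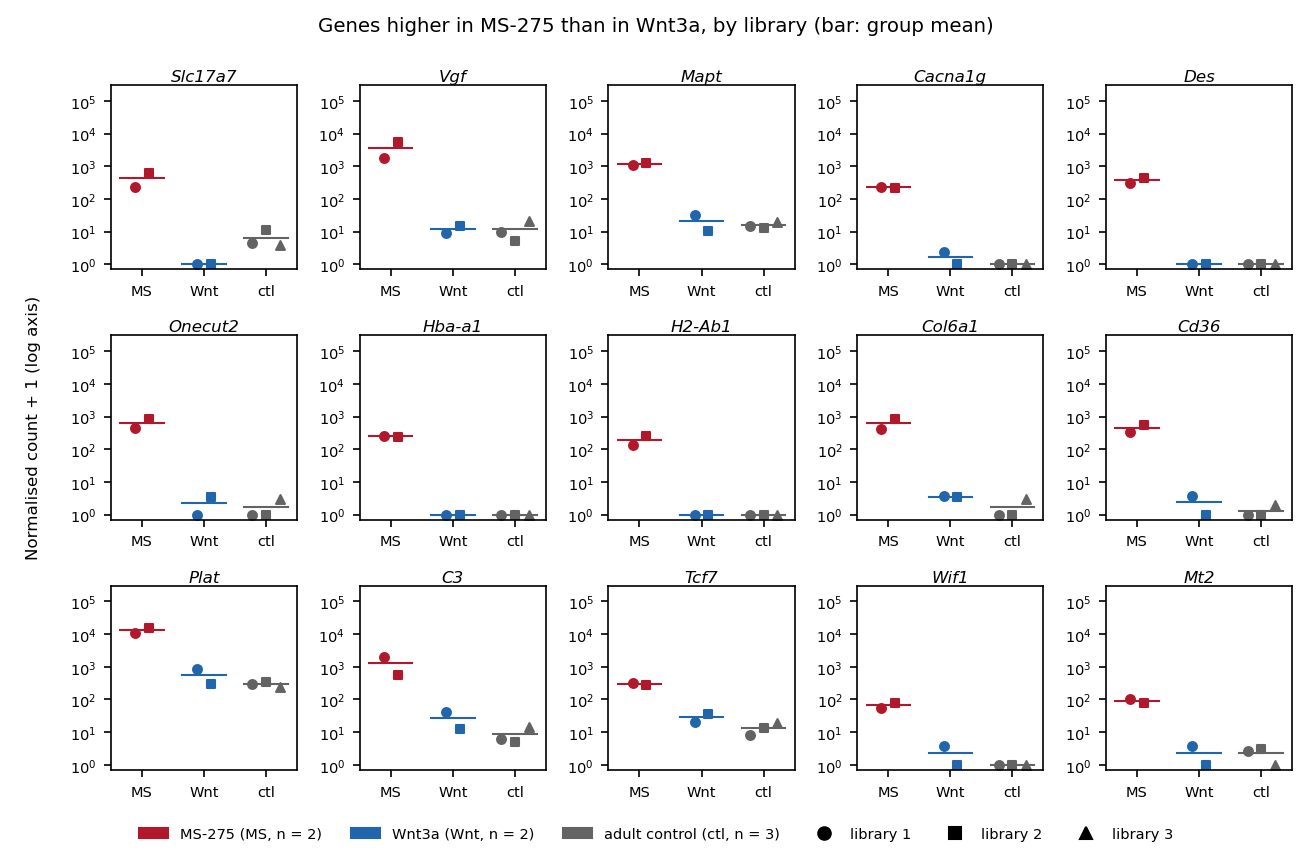
Normalised count + 1 (log axis) of genes called higher in MS-275, 1 point a library, with MS-275 left of Wnt3a and adult control and a bar at each group's mean. Des lies at 299 and 436 in MS-275 and has no read in Wnt3a or adult control.

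Some antigen presentation genes were read in MS-275 and not in Wnt3a. Of 20 tested MHC genes 7 passed the filter through MS-275 only, so that being high there was part of how they came to be tested. The 6 that rose were all among these, none of the other 13 rose, and 1, Psmb10, fell (4.05-fold, named after its values were seen). H2-Ab1, the beta chain of a class II molecule, had 131 and 251 in MS-275, against no read in Wnt3a or adult control (log2 difference 7.51 ± 0.59, adjusted p = 0.0032). H2-Aa, its alpha chain, had 25.6 and 78.7 in MS-275, against no read in Wnt3a or adult control, H2-Eb1 73.4 and 98.4 in MS-275, against no read in Wnt3a or adult control, and H2-Oa 15.4 and 15.3 in MS-275, against no read in Wnt3a or adult control. Nlrc5, an activator of class I genes, had 113 and 19.7 in MS-275, against no read in Wnt3a or adult control. Of 13 complement genes 2 rose and 2 fell, where 11.1% of all tested genes rose and 11.0% fell. C3, the central component, had 1992 and 544 in MS-275, against 41.7 and 11.9 in Wnt3a and 4.07 to 13.8 in adult control (47.3-fold higher), and C1s1, a protease of the classical pathway, 866 and 188 in MS-275, against 16.7 and 2.39 in Wnt3a and 0 to 2.60 in adult control. Cr1l, which restrains complement on the cell surface, was 3.91-fold lower. Interferon genes did not follow: of 23, Rsad2, the antiviral viperin, rose, with 982 and 6725 in MS-275, against 97.2 and 38.2 in Wnt3a and 45.4 to 154 in adult control, and Ddx58, which encodes the RNA sensor RIG-I, fell, with 832 and 684 in MS-275, against 3116 and 3790.3 in Wnt3a and 3724 to 4342 in adult control.

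Of 20 genes of leukocyte adhesion and chemokines 1 rose and 3 fell, where 11.1% of all tested genes rose and 11.0% fell. Selp, P-selectin, which catches rolling leukocytes, had 203 and 128 in MS-275, against 7455 and 8197 in Wnt3a and 7066 to 9667 in adult control (47.3-fold lower, log2 difference -5.59 ± 0.28, adjusted p = 0.0022). Cx3cl1, the membrane-bound chemokine fractalkine, was 4.80-fold higher. Cxcl12, the ligand of Cxcr4, had 1382 and 807 in MS-275, against 6432 and 3814 in Wnt3a and 1354 to 2954 in adult control (4.68-fold lower), and both Wnt3a libraries were above every control library. Of the 14 calls named for these genes, 8 held without each library in turn. Calls lost were 3 without MS-275 1 (adjusted p 0.083 to 0.088), 5 without MS-275 2 (adjusted p 0.063 to 0.14), 2 without Wnt3a 1 (adjusted p 0.078 to 0.084), 6 without Wnt3a 2 (adjusted p 0.052 to 0.13), 1 without adult control 1 (adjusted p 0.073) and 1 without adult control 2 (adjusted p 0.067). Without MS-275 1, the log2 difference was 4.37 for Nlrc5 (5.60 with all) and 4.54 for C3 (5.47 with all). It was 4.73 for H2-Aa (5.52 with all) and 3.99 for Rsad2 (5.37 with all) without MS-275 2. It was 4.52 for C1s1 (5.71 with all) without Wnt3a 2.

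Matrix genes were called in both directions, and most were not called. Of 26 genes of the extracellular matrix 4 rose (2 without MS-275 2) and 6 fell (0 without MS-275 2, 2 without MS-275 1, 3 without Wnt3a 1). Of the 26, 3 passed the filter through MS-275 only, and among the other 23, 1 rose. Col6a1, a chain of collagen VI, had 419 and 844 in MS-275, against 2.78 and 2.39 in Wnt3a and 0 to 1.97 in adult control (log2 difference 7.38 ± 0.75, adjusted p = 0.0052), and Col6a2 41.8 and 146 in MS-275, against no read in Wnt3a or adult control. Col4a1, of the basement membrane, had 8811 and 9588 in MS-275, against 23463 and 51009.8 in Wnt3a and 45900.5 to 52885 in adult control (4.05-fold lower), and Sparc, which binds collagen, was 3.91-fold lower. Of 20 matrix proteases and inhibitors 7 fell (4 without MS-275 2 or Wnt3a 2) and 2 rose (median -1.10). Adamts5, an aggrecan-cleaving protease, had 59.7 and 131 in MS-275, against 4182 and 11182 in Wnt3a and 10059 to 14859.5 in adult control (log2 difference -6.25 ± 0.55, adjusted p = 0.0041). Adamts1 had 904 and 292 in MS-275, against 28283 and 42879 in Wnt3a and 45888 to 49173 in adult control and Adamts4 223 and 214 in MS-275, against 9336 and 7726 in Wnt3a and 6816 to 12766 in adult control. In all 3 both MS-275 libraries were far below every other library. Adam19, a shedding protease, was 13.2-fold lower, and Mmp14, a membrane-bound collagenase, had 44.4 and 5.46 in MS-275, against 1185 and 777 in Wnt3a and 743 to 2511 in adult control (39.4-fold lower). Of 12 mesenchymal genes Col1a1 rose, and Vim, vimentin, and Zeb2, a repressor of epithelial genes, fell 2.91-fold and 4.25-fold. Col1a1 passed the filter through MS-275 only. Zeb2 had 920.3 and 396 in MS-275, against 3845 and 1754 in Wnt3a and 794 to 1601 in adult control, with both Wnt3a libraries above the controls.

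Of 16 integrins 2 rose and 3 fell, where 11.1% of all tested genes rose and 11.0% fell. Itgb4, of a laminin receptor, had 623 and 481 in MS-275, against 3319 and 4220.1 in Wnt3a and 2196 to 4059 in adult control (log2 difference -2.77 ± 0.35, adjusted p = 0.0067), and Itga5, of the fibronectin receptor, was 4.76-fold lower. Itga7, of a muscle laminin receptor, was 13.9-fold higher, and Itgb5, of a vitronectin receptor, 5.45-fold. Of 24 guidance genes 6 fell (3 without MS-275 2 or Wnt3a 2) and 1, Efnb1, rose (2.60-fold, named after its values were seen). Sema3a, a secreted repellent, had 290.0 and 172 in MS-275, against 8708 and 6898 in Wnt3a and 7995 to 8636 in adult control (log2 difference -5.11 ± 0.28, adjusted p = 0.0024), while the transmembrane semaphorins Sema4c and Sema6d were 8.19-fold and 2.41-fold lower. The call held without each library in turn for 8 of these 19 genes. The test was missed by 5 without MS-275 1 (adjusted p 0.054 to 0.13), 10 without MS-275 2 (adjusted p 0.053 to 0.24), 5 without Wnt3a 1 (adjusted p 0.056 to 0.16), 6 without Wnt3a 2 (adjusted p 0.051 to 0.1), 3 without adult control 1 (adjusted p 0.076 to 0.12) and 3 without adult control 2 (adjusted p 0.06 to 0.1). The log2 difference without MS-275 2 was 5.42 for Col6a2 (6.31 with all), -5.27 for Adamts1 (-6.08 with all), -4.40 for Mmp14 (-5.81 with all), -1.50 for Zeb2 (-2.10 with all) and -1.66 for Itga5 (-2.46 with all). It was -5.55 for Adamts5 (-6.25 with all) without Wnt3a 2.

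Of 138 tested genes of metabolism 15 rose (10.9%) and 6 fell (4.35%), against 11.1% and 11.0% of all tested genes. Of 25 genes of fatty acid handling 4 rose and 2 fell. Of the 25, 3 passed the filter through MS-275 only, Cd36 and Lpl among them, and among the other 22, 2 rose. Cd36, a fatty acid translocase, had 330.1 and 549.7 in MS-275, against 2.78 and 0 in Wnt3a and 0 to 0.99 in adult control (log2 difference 7.78 ± 0.82, adjusted p = 0.0052). Acsl1, which activates fatty acids, was 9.11-fold higher, and its relative Acsl5 6.75-fold lower. Lpl, lipoprotein lipase, had 340.3 and 72.1 in MS-275, against 8.34 and 7.16 in Wnt3a and 0 to 4.07 in adult control, while Gpihbp1, which carries that lipase across capillary endothelium, had 1.71 and 6.56 in MS-275, against 32 and 479 in Wnt3a and 561 to 1595 in adult control. Of 13 iron genes 2 rose, Tfrc and Ncoa4, the receptor for ferritin turnover (2.43-fold). Fth1, ferritin heavy chain, had 828164 and 330673 in MS-275, against 214360.0 and 73863 in Wnt3a and 83997 to 110386 in adult control, took 3.06% and 1.26% of all normalised counts in MS-275 and was the top gene there, but was not called (95% interval 0.44 to 3.67, adjusted p = 0.074). Ftl1, the light chain, had 175395 and 173964 in MS-275, against 88029 and 66447 in Wnt3a and 62151 to 83019 in adult control (adjusted p = 0.053).

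Of 27 subunits of oxidative phosphorylation 4 rose and 1 fell, where 11.1% of all tested genes rose and 11.0% fell. Ndufv1, of complex I, had 3535 and 4889 in MS-275, against 1324 and 1373 in Wnt3a and 1444 to 2034 in adult control (3.12-fold higher), and Sdhc, of complex II, was 2.29-fold higher. Of 24 genes of glycolysis and hypoxia Slc2a3, a glucose carrier of neurons, rose, with 36.7 and 308 in MS-275, against 0 and 2.39 in Wnt3a and 0 to 4.07 in adult control, and Egln3, an oxygen-sensing hydroxylase, fell 2.40-fold. Slc2a3 passed the filter through MS-275 only. Of 27 lysosomal genes 4 rose and 2 fell, and Gusb, beta-glucuronidase, was among those that fell, with 1006 and 703 in MS-275, against 3298 and 3760.5 in Wnt3a and 3672 to 5343 in adult control (log2 difference -2.06 ± 0.27, adjusted p = 0.0069). None of 22 cholesterol synthesis genes was called. Dhcr7, a late enzyme of the pathway, had 1429 and 1721 in MS-275, against 582 and 265 in Wnt3a and 260.3 to 772 in adult control (95% interval 0.51 to 3.48, adjusted p = 0.063). It was called under 7 of 22 alternatives, DESeq2 (adjusted p = 0.011) and the fit without adult control 3 (adjusted p = 0.021) among them. Of 21 genes of protein folding Calr, the chaperone calreticulin, rose, with 45468 and 57585 in MS-275, against 20002 and 18278 in Wnt3a and 19561 to 20719 in adult control, and Xbp1, a factor of the unfolded protein response, was 2.12-fold lower. Leaving out each library in turn kept 2 of these 13 calls (Cd36 and Gusb). Lost were 5 without MS-275 1 (adjusted p 0.055 to 0.18), 9 without MS-275 2 (adjusted p 0.05 to 0.14), 5 without Wnt3a 1 (adjusted p 0.058 to 0.095), 10 without Wnt3a 2 (adjusted p 0.051 to 0.15), 4 without adult control 1 (adjusted p 0.061 to 0.076) and 2 without adult control 2 (adjusted p 0.063 to 0.067). Leaving out MS-275 1 gave a log2 difference of 3.07 for Lpl (4.18 with all). It was 2.38 for Acsl1 (3.08 with all), -2.05 for Acsl5 (-3.11 with all) and 4.36 for Slc2a3 (5.87 with all) without MS-275 2. It was 6.82 for Cd36 (7.78 with all) and -2.87 for Gpihbp1 (-4.80 with all) without Wnt3a 2.

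**Figure D4:**
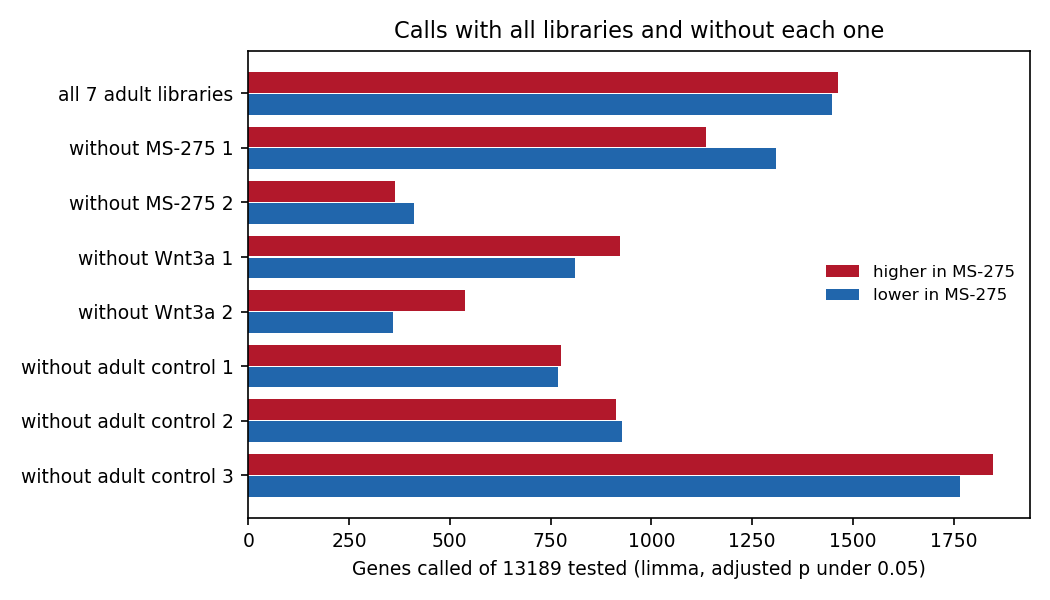
Number of genes called higher and lower in MS-275 against Wnt3a with all libraries and with each library left out in turn. The count is lowest without MS-275 2 for genes called higher (364) and without Wnt3a 2 for genes called lower (359).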

How the data were processed

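Messenger RNA of the cultures was sequenced and, per the labels and the study's methods, checked with FastQC, trimmed with cutadapt, aligned with STAR to mm10 and counted on protein-coding genes (the labels list featureCounts, the methods in-house scripts), with versions and strand not given in the sources used here. All values come from a file the authors deposited, a table of normalised counts, that is, a signal per gene made by dividing counts by DESeq2 size factors. In it 100% of values came out as whole reads (tolerance 0.01), with 21171509 to 31810932 reads per adult library. Of 21638 lines, 26 named a date in place of a gene, held 0.210 to 0.281% of counts and were left out. Without strand, overlapping and antisense genes cannot be told apart.

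Genes with at least 10 in at least 2 of the 4 treated libraries (13189) were tested on log2(value + 1) with limma 3.58.1 (R 4.3.3) and an intensity trend, MS-275 minus Wnt3a, with adult control libraries in the fit for the spread only (4 residual and 2.69 prior degrees of freedom). P-values were Benjamini-Hochberg adjusted over all tested genes, with calls made under 0.05 where the log2 difference was beyond 0.2. The script was tested on simulated data. Run on the recovered reads as alternatives, edgeR 4.0.16 called 1000 higher and 1346 lower, and DESeq2 1.42.0 1851 and 2005. Other alternatives were filters, pseudocounts, scalings, sample sets, a replicate block and leaving out each library. A library-set term was added after seeing the data. For a group without reads, folds were set against 3 reads over the group.

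The members and gene lists were chosen with earlier results of these data known. Lists are described by counts and medians, with no test. The text names genes from the study's text, the (at most 5) list members of smallest p, and the 12 largest rises and falls of called genes whose treated libraries averaged 100 or more, and any other is said to be named after its values were seen. A few members that the rule names are not reported here. Promoters were RefSeq windows of GRCm38.p6, matched by symbol for 10294 of the tested genes and by an older symbol for 84.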

Additional observations from a re-analysis of the deposited data

How the results depend on the processing

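With all 7 adult libraries in the fit, 1462 genes were called higher and 1449 lower in MS-275 than in Wnt3a, and no gene called here was called in the other direction under any alternative. The fit of the 4 treated libraries alone called 503 and 499, that of all 10 libraries 2186 and 2028, and a fit with the library set as a term (MS-275 2, Wnt3a 2 and adult control 3 against the rest, chosen after seeing the data) 2707 and 2536. Leaving out each library in turn gave 364 to 1846 higher and 359 to 1765 lower. Filters, pseudocounts, scalings and a log2 difference beyond 1 gave 1164 to 1912 higher and 1294 to 1545 lower, and the median over all genes was -0.01 with TMM factors and 0.13 with equal totals, against 0.06. Without a filter 58.1% of the calls were higher, against 50.2%. With the replicate number as a replicate block the counts were 1846 and 1843, and with the block in the fit of the 4 treated libraries alone 2090 and 1975. The differences between replicates 1 and 2 correlated at 0.47 across genes between MS-275 and Wnt3a, but there are only 2 numbers and no label pairs the libraries, so they share a number only. Among uncalled genes, Ezh2 had a log2 difference of -0.74 without Wnt3a 1 and 0.093 without Wnt3a 2, against -0.32, and Vegfa 0.336 without Wnt3a 1 and -1.124 without Wnt3a 2, against -0.39. Of the 14 uncalled genes named in the text, 10 were called under at least 1 alternative and at most 7, and with the replicate block Cldn5 (adjusted p = 0.019) and Dhcr7 (adjusted p = 0.021) passed the test. Of the 184 called genes named in the text, 67 kept their call without each library in turn, 84 moved by over 1.5-fold and none changed sign. The causes of these differences were not tested. With 2 libraries a group, genes whose replicates differ as much as those of Sox18 or Dipk2b are near the limit of what can be called.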
